A study of Mus musculus with 10 samples.

Results

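The transcription factors Wt1, Tcf21, Lmx1b, Foxc1, Foxc2, Foxd1, Foxd2, Nfib and Dach1 were followed in kidney glomeruli of mice that carry 1 mutated copy of Wt1. All 9 genes were measured, by 21 probe sets that the platform annotation assigns to exactly 1 of them, out of 45037 probe sets tested for 18193 genes. The mutant mice were heterozygous for a knock-in of the R394W change (Wt1 +/R394W, n = 5), and the controls were Wt1 +/+ littermates (n = 5). All were unweaned males aged 27 days on an FVB/N background after 4 backcross generations, and each mouse gave 1 array. The allele is present in every cell of the animal, not in podocytes alone. The mutants were described as having little albumin in the urine and normal mesangium under the light microscope, so the comparison addresses transcript levels while the disease is at an early stage. Values are on the log2 scale as the authors deposited them, and a change is the Wt1 +/R394W mean minus the Wt1 +/+ mean. A call is an adjusted p under 0.05 over all probe sets.

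Podocytes wrap the capillaries of the glomerulus with interlocking foot processes, and a small set of transcription factors keeps their gene programme running. Wt1 is a zinc finger protein needed for kidney formation and for the adult podocyte, and R394W lies in its DNA-binding zinc fingers and is a recurrent Denys-Drash mutation in patients. Tcf21 is a basic helix-loop-helix factor of podocytes and kidney stroma, and Lmx1b is the LIM-homeodomain factor mutated in human nail-patella syndrome. Foxc1, Foxc2, Foxd1 and Foxd2 are forkhead factors of the kidney mesenchyme, of which Foxc1 and Foxc2 act early in podocyte formation in mice. Nfib is a nuclear factor I protein, and Dach1 is a transcriptional regulator that podocytes share with other cell types, endothelium among them.

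Promoter sequences are shown for 4 of these factors so that their DNA can be set beside the values that follow. RefSeq's table held a promoter for 6 of the 9 genes (Tcf21, Lmx1b, Foxc1, Foxd1, Foxd2 and Dach1). The 250 bases before the annotated start are printed 5′ to 3′ on the strand of the gene, from assembly GRCm38.p6. Foxc1 lies at chr13:31806396-31806645 (plus strand), Foxd2 at chr4:114908899-114909148 (minus strand), Foxd1 at chr13:98353995-98354244 (plus strand) and Lmx1b at chr2:33641099-33641348 (minus strand). Capitals mark matches to GCGNGGGNG, a loose form of the GC-rich site that Wt1 and the Egr zinc finger proteins can bind, read on either strand.
Foxc1: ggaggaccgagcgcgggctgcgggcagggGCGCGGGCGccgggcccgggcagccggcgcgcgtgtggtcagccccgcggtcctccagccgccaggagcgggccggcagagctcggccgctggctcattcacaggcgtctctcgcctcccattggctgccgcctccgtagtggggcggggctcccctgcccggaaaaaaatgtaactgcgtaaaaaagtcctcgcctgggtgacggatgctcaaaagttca
Foxd2: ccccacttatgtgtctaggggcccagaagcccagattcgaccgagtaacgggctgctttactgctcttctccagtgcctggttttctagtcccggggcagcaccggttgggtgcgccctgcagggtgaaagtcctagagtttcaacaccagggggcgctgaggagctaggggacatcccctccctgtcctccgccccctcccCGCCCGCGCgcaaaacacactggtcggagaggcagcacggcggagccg
Foxd1: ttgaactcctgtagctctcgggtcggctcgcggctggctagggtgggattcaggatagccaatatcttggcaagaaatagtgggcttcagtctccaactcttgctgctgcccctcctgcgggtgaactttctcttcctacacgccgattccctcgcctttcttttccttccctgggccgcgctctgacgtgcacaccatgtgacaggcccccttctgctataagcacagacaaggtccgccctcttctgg
Lmx1b: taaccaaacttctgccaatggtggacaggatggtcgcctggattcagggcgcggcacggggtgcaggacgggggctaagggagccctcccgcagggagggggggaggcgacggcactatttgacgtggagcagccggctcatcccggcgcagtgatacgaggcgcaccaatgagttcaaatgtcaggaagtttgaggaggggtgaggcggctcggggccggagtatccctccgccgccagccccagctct
The loose motif was found once in Foxc1, from base -221 to -213 counted from the start, and once in Foxd2, from base -48 to -40 on the opposite strand. It was absent from the same window of Tcf21, Lmx1b, Foxd1 and Dach1, and 10.5% of all 32851 promoters of this length hold it. That share was not matched for base composition. G and C made up 70.8% of the Foxc1 window and 64.4% of the Foxd2 window, against a median of 52.4% over all promoters. In the windows without a match they made up 52.4% (Tcf21) to 65.2% (Lmx1b). The stricter 9-letter forms GCGTGGGAG and GCGGGGGCG, which the loose form includes, matched in none of the 6 promoters and in 0.405% and 2.57% of all promoters. A match here describes letters and does not show binding.

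None of the 21 probe sets was called, against 0.853% of all probe sets (limma, adjusted p under 0.05). At an unadjusted p under 0.05 there were 8 of 21, against 9.36% of all probe sets, and an exact permutation test of each probe set gave 6 of 21 below 0.05, against 9.12% of all probe sets. The members were named with earlier results of these data known, and probe sets of 1 gene share their source, so these counts are descriptions. In 0 of 21 probe sets were the genotypes fully apart, against 2.78% of all probe sets. By the brightest probe set of each gene, Wt1, Nfib and Dach1 had higher means in Wt1 +/R394W glomeruli, and Tcf21, Lmx1b, Foxc1, Foxc2, Foxd1 and Foxd2 had lower means. Negative changes made up 50.8% of all probe sets. All 9 brightest probe sets were well lit, with 80.1% (Lmx1b) to 98.9% (Tcf21) of probe sets dimmer. Such percentages describe the probe sets and do not order the genes by transcript amount.

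**Figure D1:**
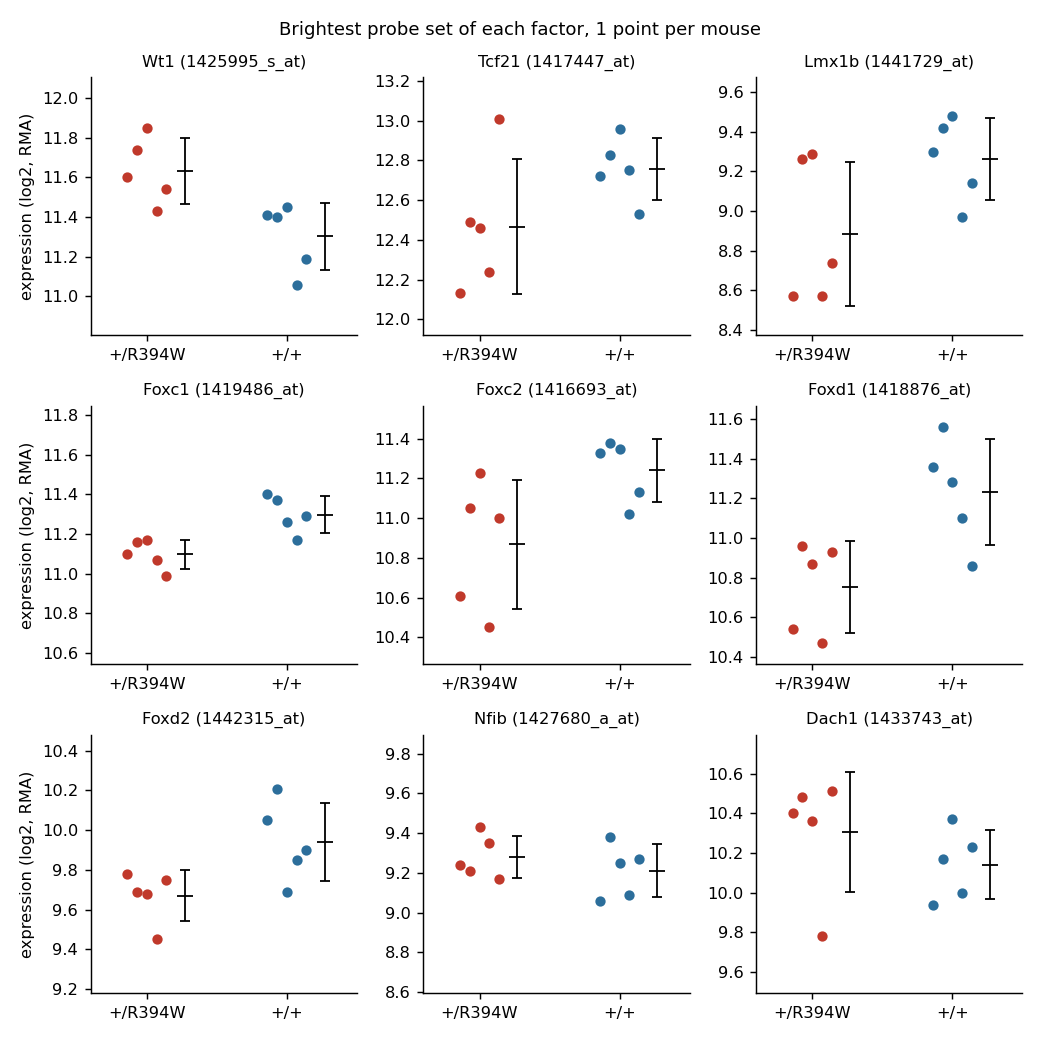
Log2 expression of the brightest probe set of each of the 9 factors, with 1 point per mouse, Wt1 +/R394W in red on the left and Wt1 +/+ in blue on the right, and the mean ± SD as a bar (n = 5 each). Each panel spans the same height on the log2 axis, and in every panel the genotypes overlap: for Wt1 only mutant 4 (11.43) lies below the highest wild type (11.45).

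Wt1, the mutated gene itself, read 11.60, 11.74, 11.85, 11.43 and 11.54 in the 5 Wt1 +/R394W mice, against 11.41, 11.40, 11.45, 11.06 and 11.19 in the 5 Wt1 +/+ mice. Every mutant except mutant 4 lay above all wild types, and mutant 4 lay above all wild types but wild type 3. The means were 11.63 ± 0.16 in Wt1 +/R394W mice and 11.30 ± 0.17 in Wt1 +/+ mice (SD, n = 5 each), a change of 0.33 ± 0.10 (SE). It corresponds to 25.7% more signal in Wt1 +/R394W glomeruli (95% interval 8.02% to 46.3%), with an adjusted p of 0.244 by limma. Unlike the adjusted p, this and the other 95% intervals hold for a single probe set and are not adjusted for the number tested. The Wt1 change lay between 0.27 and 0.38 on the log2 scale when any 1 mouse was left out. The probe set, 1425995_s_at, can match several transcripts and reads both alleles together, so it does not check the genotype. The antisense transcript Wt1os, from the same locus, had a change of 0.17 ± 0.12 (SE) with an adjusted p of 0.743. None of the 10 nearest measured neighbours of Wt1 on chromosome 2, Wt1os included, was called. Their changes ran from -0.04 (Pax6 and Pax6os1) to 0.41 ± 0.38 (SE, Them7), with 0.26 ± 0.12 (SE) for Eif3m, a translation initiation factor subunit.

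Foxd1, a forkhead factor of stromal progenitors and of young podocytes, had the largest change in size among the brightest probe sets of the 9 genes (1418876_at, chromosome 13). It read 10.54, 10.96, 10.87, 10.47 and 10.93 in Wt1 +/R394W mice, against 11.36, 11.56, 11.28, 11.10 and 10.86 in Wt1 +/+ mice. Of the wild types, 4 lay above all mutants and wild type 5 lay below mutants 2, 3 and 5. The change was -0.48 ± 0.14 (SE), or -28.1% (95% interval -41.9% to -11.0%), with an adjusted p of 0.229. Without wild type 5 it was -0.57, and without wild type 2 it was -0.39.

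Foxd2 was measured by a pair of probe sets. The brighter one, 1442315_at on chromosome 4, read 9.78, 9.69, 9.68, 9.45 and 9.75 in Wt1 +/R394W mice, against 10.05, 10.21, 9.69, 9.85 and 9.90 in Wt1 +/+ mice. All wild types except wild type 3 lay above all mutants. Its change was -0.28 ± 0.10 (SE, adjusted p = 0.371), and that of 1450289_at was -0.23 ± 0.10 (SE, adjusted p = 0.503).

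The Foxc genes gave changes of the same sign in all their probe sets. Foxc1 (1419486_at, chromosome 13) read 11.10, 11.16, 11.17, 11.07 and 10.99 in Wt1 +/R394W mice, against 11.40, 11.37, 11.26, 11.17 and 11.29 in Wt1 +/+ mice. The genotypes met only at mutant 3 and wild type 4, both at 11.17. Its change was -0.20 ± 0.06 (SE, adjusted p = 0.283), and the dimmer probe set 1419485_at had a change of -0.19 ± 0.11 (SE, adjusted p = 0.649). Foxc2 (1416693_at, chromosome 8) read 10.61, 11.05, 11.23, 10.45 and 11.00 in Wt1 +/R394W mice, against 11.33, 11.38, 11.35, 11.02 and 11.13 in Wt1 +/+ mice. Mutants 1 and 4 were the low mice, while mutants 2 and 3 lay within the span of the wild types. The Foxc2 change was -0.37 ± 0.14 (SE), with an adjusted p of 0.412. Its spread was 0.33 in Wt1 +/R394W mice and 0.16 in Wt1 +/+ mice (SD, n = 5 each).

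Lmx1b read 8.57, 9.26, 9.29, 8.57 and 8.74 in Wt1 +/R394W mice, against 9.30, 9.42, 9.48, 8.97 and 9.14 in Wt1 +/+ mice (1441729_at, chromosome 2). The same mutants as for Foxc2, 2 and 3, stood within the wild-type span. The change was -0.37 ± 0.16 (SE, adjusted p = 0.510). The other probe set, 1421769_at, had a mean of 6.03 and a change of -0.04 ± 0.06 (SE, adjusted p = 0.881), so the probe sets of Lmx1b differ in size of change.

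Tcf21 read 12.13, 12.49, 12.46, 12.24 and 13.01 in Wt1 +/R394W mice, against 12.72, 12.83, 12.96, 12.75 and 12.53 in Wt1 +/+ mice (1417447_at, chromosome 10). Mutant 5 was the highest of all 10 mice, and the other mutants lay below every wild type. Over all mice the change was -0.29 ± 0.15 (SE, adjusted p = 0.591), and without mutant 5 it was -0.43. In the subset with neighbouring animal numbers (mutants 1 to 4 against wild types 2 to 4) it was -0.52 with an adjusted p of 0.172. The dimmer probe set 1458887_at had a change of -0.22 ± 0.09 (SE, adjusted p = 0.436), and there mutant 5 (6.40) stood among the other mutants (6.36 to 6.66).

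The brightest probe sets of Nfib and Dach1 had 95% intervals that included 0, as did that of Tcf21. The 7 probe sets of Nfib (chromosome 4) had changes from -0.09 to 0.18, 4 of them negative, and the brightest, 1427680_a_at, averaged 9.28 ± 0.11 in Wt1 +/R394W mice and 9.21 ± 0.13 in Wt1 +/+ mice (SD, n = 5 each). Its 95% interval of -0.10 to 0.24 on the log2 scale leaves room for small shifts in either direction. The widest spread was that of 1434101_at, which ran from 7.22 to 8.21 in Wt1 +/R394W mice and from 7.05 to 8.54 in Wt1 +/+ mice. The 3 probe sets of Dach1 (chromosome 14) had changes of 0.16, 0.04 and 0.09, all positive. The 95% interval of the first ran from -0.14 to 0.47 on the log2 scale. The brightest, 1433743_at, read 9.78 to 10.51 with a median of 10.40 in Wt1 +/R394W mice, and 9.94 to 10.37 with a median of 10.17 in Wt1 +/+ mice. Mutant 4 was the lowest of the 10 mice in all 3 Dach1 probe sets, and without it the change of 1433743_at was 0.30 with an adjusted p of 0.280.

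**Figure D2:**
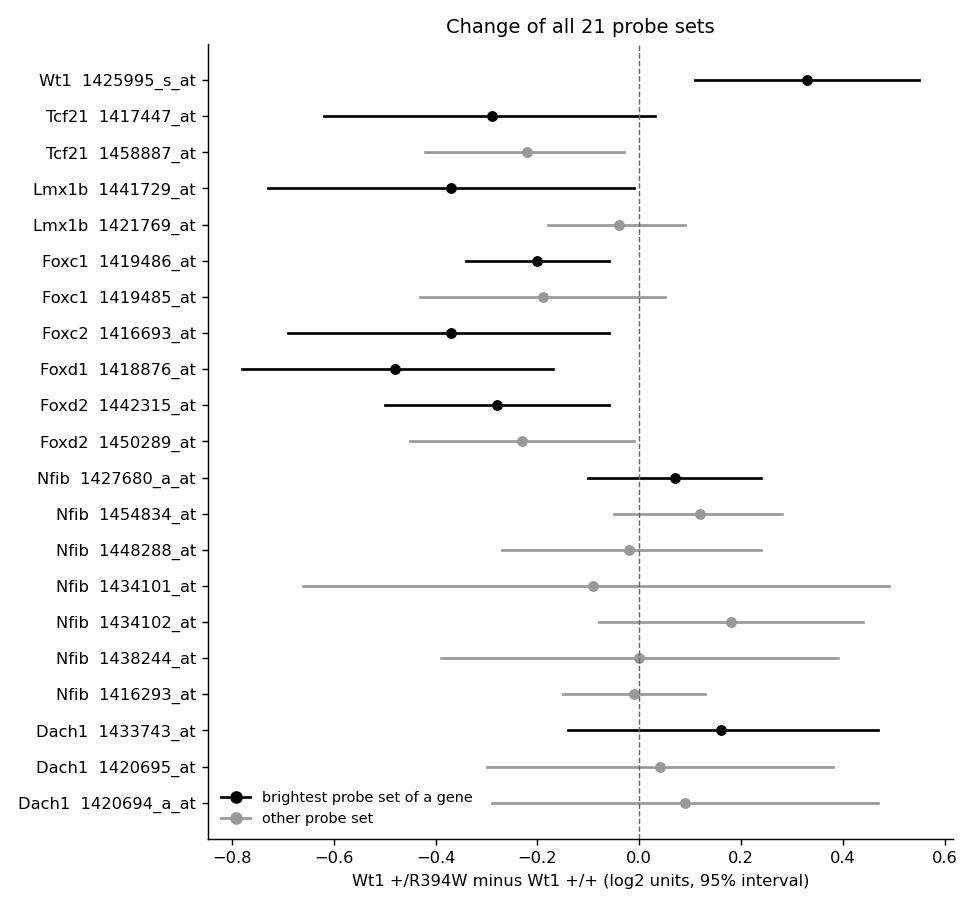
Change of all 21 probe sets (Wt1 +/R394W minus Wt1 +/+, log2 units) with unadjusted 95% intervals from the limma fit, black for the brightest probe set of each gene and grey for the others. Wt1 lies at 0.33, and the brightest probe sets of Tcf21, Lmx1b and the 4 Fox genes lie between -0.48 and -0.20. Those of Nfib (0.07) and Dach1 (0.16) have intervals that include 0, as does that of Tcf21.

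Within each genotype, several of these genes varied together from mouse to mouse. Each value was taken as the deviation from the mean of its own genotype, and Wt1 deviations were set against those of the other factors over the 10 arrays. By the brightest probe set of each gene, Pearson's r with Wt1 was 0.89 for Lmx1b (Spearman's rho 0.87), 0.82 for Foxc2 (0.75), 0.75 for Foxc1 (0.61) and 0.67 for Foxd1 (0.50). Without mutant 4 and wild type 4, the mice farthest from the median of Wt1, r was 0.85 for Lmx1b, 0.70 for Foxc2, 0.63 for Foxc1 and 0.57 for Foxd1. The brightest probe sets of Tcf21 (0.19), Foxd2 (0.30), Nfib (0.32) and Dach1 (0.46) had lower values, and r for that of Dach1 was -0.21 without those mice. This order did not hold over the other probe sets: r was 0.71 for Dach1 1420694_a_at, 0.61 for Dach1 1420695_at and 0.67 for Nfib 1434102_at, while it was -0.01 for Lmx1b 1421769_at and 0.82 for Foxc1 1419485_at. Over 12261 genes with a mean of at least 6 the median r with Wt1 was 0.15, and 0.237% of them exceeded Lmx1b, 1.26% exceeded Foxc2, 3.15% exceeded Foxc1 and 7.01% exceeded Foxd1. The 5 genes most like Wt1 by this measure were Ccar2 (0.961), Ankrd46 (0.947), Hnrnpl (0.942), Atp8a1 (0.941) and Dstyk (0.936), none of them called. The arrays share their normalization and each glomerular preparation supplies all genes of its array, and these correlations are given as descriptions. The mean of 8 podocyte markers correlated with Wt1 deviations at r = 0.52.

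**Figure D3:**
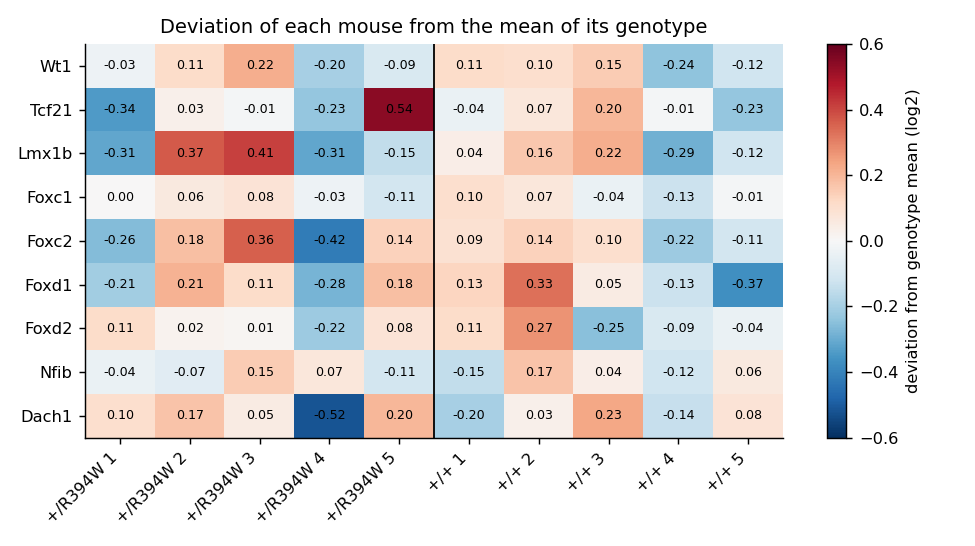
Deviation of each mouse from the mean of its genotype (log2 units, colour from blue for below to red for above) for the brightest probe set of each factor, with Wt1 +/R394W mice left of the line and Wt1 +/+ mice right of it. Mutants 2 and 3 are above their mean and mutant 4 below it in Wt1, Lmx1b, Foxc1, Foxc2 and Foxd1, and wild types 1 and 2 are above and wild type 4 below in the same 5 genes.

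The difference between Wt1 and each factor on the same array was examined as well, a comparison added after the values above had been seen. Wt1 minus Foxc2 was 0.98, 0.68, 0.62, 0.99 and 0.53 in Wt1 +/R394W mice, against 0.07, 0.02, 0.10, 0.03 and 0.05 in Wt1 +/+ mice. The wild types lay close together, and every mutant stood above all of them. Wt1 minus Lmx1b ran from 2.48 to 3.02 in Wt1 +/R394W mice and from 1.96 to 2.11 in Wt1 +/+ mice. Wt1 minus Foxd1 ran from 0.61 to 1.05 in Wt1 +/R394W mice and from -0.16 to 0.33 in Wt1 +/+ mice.

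Fitted by limma over the 45036 other probe sets, and by the brightest probe set of each gene, the Wt1 difference was larger in Wt1 +/R394W glomeruli by 0.81 ± 0.13 (SE, adjusted p = 0.00177) for Foxd1, 0.70 ± 0.12 (SE, adjusted p = 0.00306) for Foxc2 and 0.70 ± 0.12 (SE, adjusted p = 0.00374) for Lmx1b. Foxd2 (0.61 ± 0.13 SE, adjusted p = 0.0146), Foxc1 (0.53 ± 0.11 SE, adjusted p = 0.0134) and Tcf21 (0.62 ± 0.16 SE, adjusted p = 0.0261) were called as well. Nfib (0.26 ± 0.13 SE, adjusted p = 0.0848) and Dach1 (0.17 ± 0.14 SE, adjusted p = 0.286) were not, although Nfib 1416293_at, the dimmest of the 7 Nfib probe sets, was (0.34 ± 0.13 SE, adjusted p = 0.0441). The change of Wt1 itself enters every such difference: the median over all probe sets was 0.332, and 44.5% of them were called in the same direction. Of the 20 member probe sets 11 were called, a share near that background, so the count says little of the members. In 8 of the 20 every mutant lay above every wild type, against 19.4% of all probe sets. By p-value, 0.582% of probe sets ranked ahead of Foxd1, 0.711% ahead of Foxc2 and 0.797% ahead of Lmx1b. These 3 calls, and those of Foxc1 and Foxd2, held without any 1 mouse (adjusted p up to 0.0443 among the 5). The Tcf21 call was lost without mutant 2, mutant 3, wild type 4 or wild type 5 (adjusted p up to 0.0705). In the subset with neighbouring animal numbers, Lmx1b (adjusted p = 0.0519), Foxc1 (0.116) and Foxd2 (0.0956) missed the threshold, while Foxd1 (0.00574), Foxc2 (0.0266) and Tcf21 (0.0106) passed. The change of Wt1 enters these runs as well, and the share of all probe sets called in them was not computed. A ratio of this kind shows unequal change and does not say which of the genes moved.

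**Figure D4:**
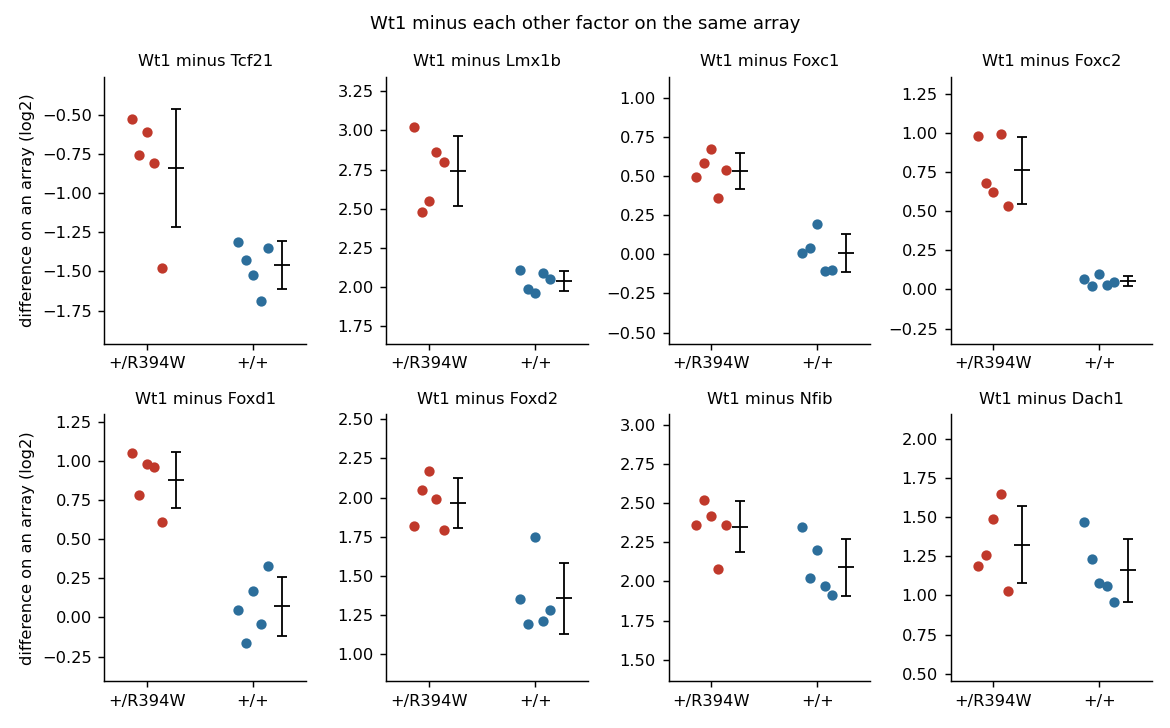
Log2 difference between Wt1 and the brightest probe set of each other factor on the same array, with 1 point per mouse, Wt1 +/R394W in red on the left, Wt1 +/+ in blue on the right, and mean ± SD bars (n = 5 each). The genotypes are apart for Lmx1b, Foxc1, Foxc2, Foxd1 and Foxd2, and they overlap for Tcf21 through mutant 5 and for Nfib and Dach1.

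Markers of the podocyte were read beside these genes. In whole glomeruli, fewer cells of a type and less RNA per cell cannot be told apart. Of 10 podocyte markers 8 were measured, all bright (lowest mean 10.51, for Kirrel), and none was called, while 7 of 8 changes were negative. Their mean per array ran from 12.45 to 12.71 in Wt1 +/R394W mice and from 12.67 to 12.83 in Wt1 +/+ mice. The 3 smallest p-values were those of Ddn, which encodes dendrin (-0.34 ± 0.08 SE, adjusted p = 0.120), the slit diaphragm gene Kirrel (-0.33 ± 0.11 SE, adjusted p = 0.273) and the actin-associated Synpo (-0.24 ± 0.09 SE, adjusted p = 0.429). With the podocyte marker mean as a covariate, the changes were -0.03 for Foxc2, -0.05 for Tcf21, -0.10 for Lmx1b, -0.13 for Foxd2, -0.24 for Foxd1 and -0.17 for Foxc1. Wt1 was then at 0.48 (adjusted p = 0.169) and Dach1 at 0.43 (adjusted p = 0.318). The marker mean itself tended to be lower in Wt1 +/R394W mice, and some of these markers are also listed as reported targets of the factors. Marker mean and genotype therefore cannot be fully told apart, and the adjusted changes do not separate them. With the podocyte marker covariate, the Wt1 minus Foxd1, Foxc2 and Lmx1b differences were still called by limma (adjusted p = 0.0123, 0.0210 and 0.0187). The Wt1 change of 0.48 enters each of them, and the share of all probe sets called in that fit was not computed. These calls therefore do not single out these factors.

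Tubule carried over with the glomeruli was uneven. All 9 proximal tubule markers had positive changes and none was called, with a median of 0.46, and their mean ran from 7.52 to 10.32 in Wt1 +/R394W mice and from 7.06 to 9.30 in Wt1 +/+ mice. Over the 10 mice, Pearson's r with that mean was -0.53 for Foxc2 (rho -0.50, permutation p = 0.116) and -0.33 for Lmx1b (rho -0.42, permutation p = 0.361). No correlation of the 9 factors passed after adjustment over the 9 (lowest adjusted p 0.447 for r and 0.556 for rho). Without mutant 5 and wild type 5, the preparations poorest in tubule, r was -0.90 for Foxc2, -0.90 for Lmx1b, -0.75 for Foxd1 and -0.68 for Tcf21. It was -0.61 for Foxc1, -0.54 for Foxd2, -0.53 for Dach1 and -0.21 for both Wt1 and Nfib. The values without these mice were not tested. All these correlations pool the genotypes without removing the genotype means, so a difference between the genotypes enters r. The tubule covariate was a wider measure, the mean of the proximal tubule and distal nephron markers together. With this covariate the changes were close to those without it, at -0.47 for Foxd1, -0.34 for Foxc2, -0.37 for Lmx1b and 0.33 for Wt1.

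**Figure D5:**
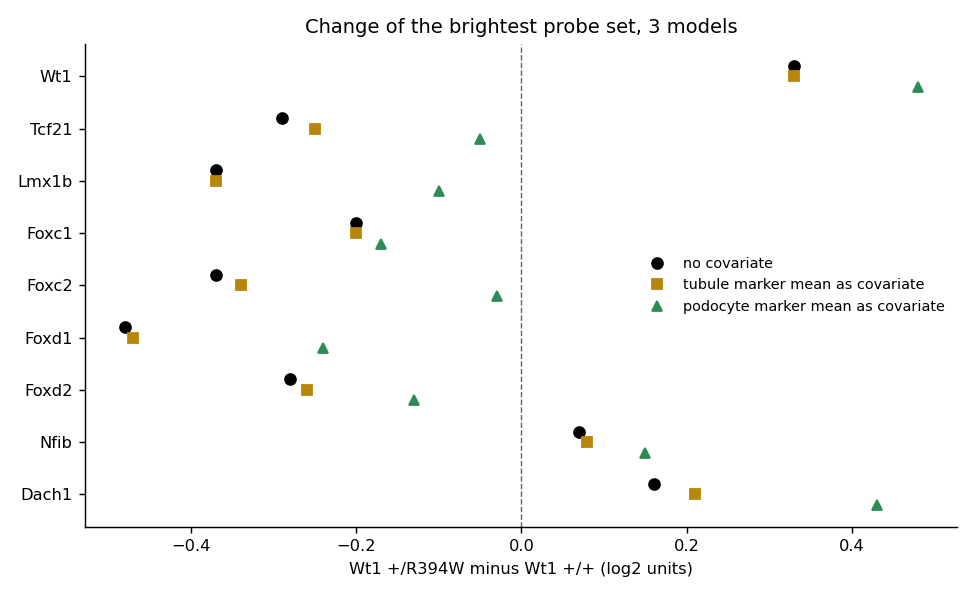
Change of the brightest probe set of each factor (Wt1 +/R394W minus Wt1 +/+, log2 units) with no covariate (circles), with the mean of tubule markers (squares) and with the mean of podocyte markers (triangles) as a covariate. Squares lie beside the circles, while triangles move toward 0 for Foxc2 (-0.03), Tcf21 (-0.05) and Lmx1b (-0.10) and away from it for Wt1 (0.48) and Dach1 (0.43).

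Other cell types were followed by short marker lists. No endothelial (8 measured), mesangial (5) or stromal (5) marker was called, and neither was any of 8 distal nephron markers. The stromal mean, relevant to Foxd1 and Tcf21, ran from 6.43 to 6.81 in Wt1 +/R394W mice and from 6.32 to 6.48 in Wt1 +/+ mice, with the genotypes overlapping. The collagen gene Col3a1 had a change of 1.01 ± 0.28 (SE, adjusted p = 0.186) and 3 of the 5 stromal markers had means below 6. Of the endothelial markers Flt1 came closest to a call (-0.25 ± 0.08 SE, adjusted p = 0.265). The endothelial mean ran from 12.13 to 12.45 in Wt1 +/R394W mice and from 12.23 to 12.40 in Wt1 +/+ mice. The mesangial mean ran from 12.00 to 12.32 in Wt1 +/R394W mice and from 12.07 to 12.33 in Wt1 +/+ mice, and that of the distal nephron from 6.80 to 8.64 in Wt1 +/R394W mice and from 6.84 to 8.60 in Wt1 +/+ mice. Of 4 parietal epithelial markers Aldh1a2, which encodes an enzyme that makes retinoic acid, rose by 1.74 ± 0.24 (SE, adjusted p = 0.00588), while Ncam1 had a change of -0.48 ± 0.11 (SE, adjusted p = 0.0944). Among 7 leukocyte markers Csf1r fell by 0.99 ± 0.17 (SE, adjusted p = 0.0220), a call lost without mutant 1, 4 or 5 or wild type 3, 4 or 5 and with the podocyte covariate (adjusted p up to 0.214). The parietal mean ran from 8.59 to 8.83 in Wt1 +/R394W mice and from 8.05 to 8.57 in Wt1 +/+ mice. It averages only 4 genes, with Aldh1a2 the only one called and the others mixed in sign. Of these, Cldn1 had a change of 0.68 ± 0.38 (SE, adjusted p = 0.649) and Pax8 of -0.31 ± 0.12 (SE, adjusted p = 0.408). The leukocyte mean ran from 6.0 to 6.56 in Wt1 +/R394W mice and from 6.15 to 6.85 in Wt1 +/+ mice. The part of these cell types in the changes of the 9 factors was not tested beyond the covariates above.

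Proteins that work with these factors included a called gene. Of 12 measured partners only Basp1 passed, against 1.26% of all genes by 1 probe set each. It encodes a protein known to bind Wt1 and turn its activation into repression. Basp1 read 9.42, 9.51, 9.54, 9.27 and 9.44 in Wt1 +/R394W mice, against 8.79, 9.01, 8.90, 8.93 and 9.21 in Wt1 +/+ mice. Every mutant lay above every wild type, and Basp1 rose by 0.47 ± 0.08 (SE, adjusted p = 0.0271). The call held only without mutant 4 or wild type 5 when 1 mouse was left out (adjusted p up to 0.0821), and it was lost in the subset with neighbouring animal numbers. It held with the tubule covariate (adjusted p = 0.00883) and the podocyte covariate (adjusted p = 0.0460). Pawr, whose product binds the Wt1 zinc fingers, had a change of 0.19 ± 0.08 (SE, adjusted p = 0.514). Tcf12, a partner of helix-loop-helix factors such as Tcf21, had a change of 0.11 ± 0.06 (SE, adjusted p = 0.622) with every mutant above every wild type. Another of its probe sets was called where only probe sets without a suffix letter were kept (0.27 ± 0.05 SE, adjusted p = 0.0342). Median change of the partners was 0.02, and that of all genes was 0.00428.

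Relatives of the 9 factors and other regulators were not called. Of 17 measured paralogs, 7 had means below 6 and none passed, while Foxl1 was called without mutant 3 (adjusted p = 0.0259). The smallest p-values were those of the forkhead gene Foxl1 (-0.43 ± 0.10 SE, adjusted p = 0.103), the helix-loop-helix gene Tcf23 (-0.47 ± 0.12 SE, adjusted p = 0.150) and the zinc finger gene Egr2 (0.25 ± 0.08 SE, adjusted p = 0.267). The nuclear factor I genes beside Nfib had changes of 0.02 (Nfia), -0.12 (Nfic) and 0.10 (Nfix). Of 15 measured other regulators of podocytes, none passed and the median change was -0.02. The vitamin D receptor gene Vdr had the lowest p, with every mutant (8.03 to 8.59) below every wild type (8.79 to 9.03) and a change of -0.48 ± 0.11 (SE, adjusted p = 0.0996). With the tubule covariate Vdr fell by 0.53 (adjusted p = 0.0361), and by the mean of its probe sets it fell by 0.52 (adjusted p = 0.0432). Zhx2 (-0.17 ± 0.08 SE, adjusted p = 0.585) and the glucocorticoid receptor gene Nr3c1 (0.14 ± 0.07 SE, adjusted p = 0.609) followed. None of 10 measured transcription factors of the early nephron passed, with Pax8 at -0.31 ± 0.12 (SE, adjusted p = 0.408), Eya1 at -0.52 ± 0.21 (SE, adjusted p = 0.448) and Sall1 at -0.20 ± 0.15 (SE, adjusted p = 0.761).

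Genes reported as targets of the factors included 3 called genes. Of 20 measured, Scel, Sulf1 and Plce1 fell and none rose, against 1.26% of all genes called in either direction. Bmp7, a growth factor of the developing kidney, missed the threshold at 0.66 ± 0.14 (SE, adjusted p = 0.0545), with every mutant (10.10 to 10.65) above every wild type (9.37 to 9.99). It was called with a mean of at least 6, with a trend in the variance, without wild type 1 and by the mean of its probe sets (adjusted p = 0.0291 to 0.0455). Next by p-value came Sulf2 (-0.76 ± 0.18 SE, adjusted p = 0.0996), Pdgfa (0.36 ± 0.10 SE, adjusted p = 0.186) and Vegfa (-0.31 ± 0.09 SE, adjusted p = 0.232). None of them was called, and in each the genotypes were fully apart. Thbs1, which encodes the matrix protein thrombospondin, followed with a change of 1.07 ± 0.32 (SE, adjusted p = 0.244) and overlapping genotypes. It was called with the tubule covariate (1.23 ± 0.23 SE, adjusted p = 0.0314). Scel, Sulf1 and Plce1 are known from this mouse model, so their place on the list is not independent evidence of its direction. Scel, which encodes sciellin, read 5.14 to 5.84 with a median of 5.48 in Wt1 +/R394W mice, and 8.20 to 9.40 with a median of 9.19 in Wt1 +/+ mice (adjusted p = 3.5e-05). Sulf1, an extracellular heparan sulfate sulfatase, read 6.19 to 7.71 with a median of 6.80 in Wt1 +/R394W mice, and 10.10 to 10.57 with a median of 10.20 in Wt1 +/+ mice (adjusted p = 9.89e-05). Plce1, a phospholipase C, read 10.91 to 11.45 in Wt1 +/R394W mice and 11.73 to 12.02 in Wt1 +/+ mice (adjusted p = 0.00865). Its call was lost with the podocyte covariate (adjusted p = 0.111) and in the subset with neighbouring animal numbers. The median change of the list was -0.08. The slit diaphragm gene Nphs1, a reported target of Wt1, had a change of -0.08 ± 0.08 (SE, adjusted p = 0.820).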

How the data were processed

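Glomerular RNA was measured on expression arrays, 1 for each mouse. The deposited values are log2 expression values of probe sets, and the submitters' processing notes name RMA as the authors' method, with version and settings not given in the sources used here. RMA corrects background, makes the distributions of arrays alike and summarises probes, which dampens changes of dim probe sets. All 10 columns carry the accession of a mouse, and 0 columns belong to other samples. Array medians lay within 0.0817, correlations between arrays ran from 0.985 to 0.997, and precision is limited by having 10 arrays.

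Of 45101 probe sets, 64 controls were left out. The platform annotation gave exactly 1 gene for 34945, several for 932 and none listed for 9160, and 34741 matched RefSeq by gene number. The comparison used limma 3.58.1 in R 4.3.3, with genotype as the only term, two-sided, Benjamini-Hochberg over 45037 probe sets. For lists, each gene was represented by its brightest probe set. Single probe sets were also tested by exact two-sided permutation over all 252 arrangements, where 0.00794 is the smallest p, and correlations with 100000 resamples. The fit was first tested on simulated data. Mice are numbered by accession and are not paired. The p-value of a change sets the difference between genotype means against the spread between mice.

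Members and lists were chosen with earlier results of these data known. Named genes are the members, the called genes of each list and those among its 3 smallest p-values, the 5 neighbours on each side of Wt1 and the 5 genes most like it. Of the marker lists only some such genes are named. Nfia, Nfic, Nfix, Nphs1, Bmp7, Sulf2, Pdgfa, Vegfa, Thbs1 and Cldn1 fall outside the rule and were chosen after their values were seen. Listed genes without a single-gene probe set were not analysed here. Promoters came from RefSeq (GRCm38.p6). Figures were drawn with matplotlib (version 3.10.9).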

Additional observations from a re-analysis of the deposited data

Results flagged for a closer look

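In 42 groups of 5 mice (21 probe sets in each genotype), 5 held a mouse that stood apart from its group, where chance gives about 1 in 20. The groups are not independent, because the same mice recur and probe sets of 1 gene share their source. The count is therefore a description. Mutant 5 was low in 2 Nfib probe sets, at 8.96 in 1454834_at (other mutants 9.19 to 9.27) and at 7.86 in 1448288_at (8.26 to 8.41). Mutant 4 was low in 2 Dach1 probe sets, at 9.78 in 1433743_at (other mutants 10.36 to 10.51) and at 9.23 in 1420695_at (9.87 to 10.10). Wild type 3 was high in Dach1 1420695_at, at 10.12 (other wild types 9.66 to 9.74). Mutant 5 had the lowest and mutant 4 the highest proximal tubule mean among the mutants (7.52 and 10.32), and whether this bears on these values was not tested.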

How the results depend on the processing

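No member probe set was called under any alternative run (limma): arrays centred on their median, quantile normalization, a mean of at least 6, 2 other variance models, array weights, each mouse left out, the subset of mutants 1 to 4 against wild types 2 to 4, tubule or podocyte marker means as covariates, only probe sets ending in _at without a further suffix letter, a threshold of 0.01, and the mean of all probe sets of a gene (lowest adjusted p 0.162, Foxd1). Tcf21, Lmx1b and the Fox genes kept the sign of their change under each of these, and so did Wt1 except where its only probe set, which has a suffix letter, left it without a value. Signs turned only in Nfib and Dach1 probe sets. Nfib 1438244_at, at 0.00 over all mice, ran from -0.31 (podocyte covariate) to 0.18 (mutants 1 to 4 against wild types 2 to 4). With array weights Nfib 1448288_at was at 0.01, with the tubule covariate Nfib 1416293_at was at 0.01, and with the podocyte covariate Nfib 1416293_at was at 0.10 and Nfib 1434101_at at 0.03. In that subset, Dach1 1420694_a_at was at -0.07 and Dach1 1420695_at at -0.04. With 1 mouse left out, changes ran from -0.03 to 0.02 for Nfib 1416293_at, -0.06 to 0.08 for Nfib 1448288_at, -0.27 to 0.10 for Nfib 1434101_at and -0.03 to 0.19 for Dach1 1420695_at. Of the 74 listed regulators, partners, paralogs and targets, 4 were called, and 2 in the subset (Scel and Sulf1), where fewer mice were fitted. Over all probe sets 384 were called, against 216 without wild type 4, 242 without wild type 1, 110 in the subset, 159 with the podocyte covariate and 144 at 0.01. Between 2 (podocyte covariate) and 9 member probe sets had an unadjusted p under 0.05. No paired analysis was possible because the labels give no litter or pairing, and litter was not modelled. The cause of the other moves was not tested. A probe set's brightness limits what dim members can show, such as Lmx1b 1421769_at with a mean of 6.03.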
